A study of Mus musculus with 12 samples.

Results

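The genes described here are the classical cadherins and their relatives outside the clustered protocadherin locus: the non-clustered protocadherins and the Celsr, Fat and Dachsous genes. They were chosen by symbol, 36 in all, and 35 of these matched 1 of the 25674 Ensembl rows of the count table. Cdh5 was not analysed here. RNA was sequenced from spiral ganglion neurons, the first neurons of the hearing pathway. Each library held 100 tdTomato-positive neurons, sorted at E14.5 from both inner ears of what the labels give as 1 mouse embryo, of either sex, on a mixed C57BL/6 and sv129 background. The 6 control embryos were Neurod1Cre; Rosa26tdTOM. The 6 embryos labelled Isl1CKO were Neurod1Cre;Isl1loxP/loxP;Rosa26tdTOM, so that Cre can remove the floxed part of Isl1, a LIM homeobox gene, in cells that express the transgene. All 12 embryos therefore carried the Neurod1 Cre transgene, made from an artificial chromosome, and the red reporter.

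Cadherins are calcium-dependent adhesion proteins of the cell surface. Classical cadherins bind the same or a related cadherin on the next cell and are linked to actin through catenins, type I for firm adhesion and type II in finer combinations that sort neurons into groups. Delta protocadherins adhere more weakly, bind signalling proteins such as the WAVE actin regulators inside the cell, and take part in axon growth and in the choice of partner neurons. Celsr proteins act in planar cell polarity and axon tract formation, and Fat proteins bind Dachsous on neighbouring cells.

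Of the 35 genes, 28 passed the filter on low counts and 12 of them differed between the groups, which is 42.9% of those tested. Among all 14813 genes tested, 10.2% did so (edgeR quasi-likelihood test, Benjamini-Hochberg adjusted p under 0.05). In the libraries labelled Isl1CKO 9 of the 12 were higher and 3 were lower, while 5.01% of all tested genes were higher and 5.19% lower. The 9 were Cdh7, Cdh10, Pcdh8, Pcdh9, Pcdh10, Pcdh11x, Pcdh17, Pcdh18 and Pcdh19, and the 3 were Cdh6, Cdh13 and Pcdh7. The delta-2 protocadherins, 5 genes, were all higher. No Celsr, Fat or Dachsous gene was called. In 9 of the 28 the groups did not overlap, against 6.78% of all tested genes. The median log2 fold change was 0.45 over the 28 tested members and 0.46 over all 35 in a fit without the filter, against 0.0045 over all tested genes. Pcdh8 passed the filter only through the libraries labelled Isl1CKO, since 0 control libraries reached the 0.746 CPM (counts scaled to library size) that the filter asked of 6 libraries. The other 27 reached it in at least 3 control libraries. Among the called genes, Cdh7, Pcdh18 and Pcdh19 reached it in 4, 3 and 4 control libraries, fewer than the 6 asked. Controls alone would not have carried these genes through the filter either. These counts describe a list chosen with earlier results of these data known.

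The called delta-2 genes lie, on GRCm38, at chr14:79766775-79771312 (Pcdh8, ENSMUSG00000036422, minus strand), chr3:45378398-45435623 (Pcdh10, ENSMUSG00000049100, plus strand), chr14:84443563-84539002 (Pcdh17, ENSMUSG00000035566, plus strand), chr3:49743296-49757325 (Pcdh18, ENSMUSG00000037892, minus strand) and chrX:133582860-133688987 (Pcdh19, ENSMUSG00000051323, minus strand). The other called members lie at chr14:93013410-93890679 (Pcdh9, ENSMUSG00000055421, minus strand), chrX:120290259-120910619 (Pcdh11x, ENSMUSG00000034755, plus strand), chr5:57717967-58133230 (Pcdh7, ENSMUSG00000029108, plus strand), chr1:109982431-110140157 (Cdh7, ENSMUSG00000026312, plus strand), chr15:18818947-19014236 (Cdh10, ENSMUSG00000022321, plus strand), chr15:13028701-13173675 (Cdh6, ENSMUSG00000039385, minus strand) and chr8:118283733-119324921 (Cdh13, ENSMUSG00000031841, plus strand). Values are for the whole annotated gene, all exons together.

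**Figure D1:**
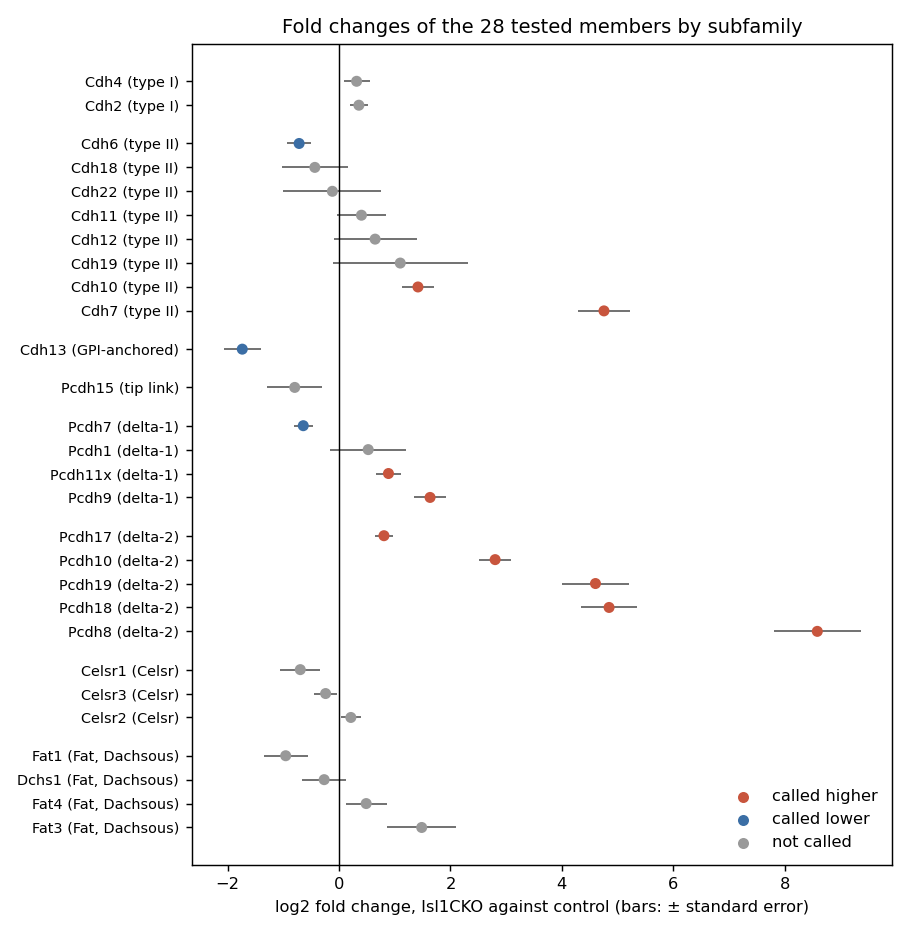
Log2 fold change of each tested member, libraries labelled Isl1CKO against control, grouped by subfamily; points are estimates and bars the standard error. The delta-2 protocadherins lie at 0.81 to 8.58, and the lowest value is that of Cdh13 at -1.74.

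Several facts about the libraries bear on every value below. Total counts ran from 11895603 to 13857480. Isl1 itself lay at 1050 to 1589 CPM in the libraries labelled Isl1CKO and at 1171 to 1777 CPM in controls, a difference of -0.15 ± 0.11 on the log2 scale (SE; edgeR adjusted p = 0.460). Counts over the whole gene do not show whether the floxed part was removed, so each direction rests on the labels. The libraries labelled Isl1CKO 2, 3 and 5 carried Xist, at 62.9, 77.8 and 132 CPM, as well as Y-linked transcripts, which goes against the label of 1 embryo for these 3 libraries. They are called the libraries of mixed-sex transcripts where a result is given without them. Isl1CKO 6 and controls 3 and 4 carried Xist, at 185, 398 and 271 CPM, with mean Y-linked levels of at most 0.426 CPM. Isl1CKO 1 and 4 and controls 1, 2, 5 and 6 carried Y-linked transcripts, with Xist at most 0.373 CPM. The groups thus differed in sex make-up, and its part in the levels of the X-linked Pcdh11x and Pcdh19 was not tested. Of 12 sensory neuron markers all were detected in every library; in those labelled Isl1CKO 4 were at a lower and 2 at a higher level (edgeR adjusted p under 0.05). Their summed level was 10005 to 12520 CPM there and 13856 to 16006 CPM in controls, which do not overlap. The sum mixes both directions. Nefl, Nefm, Gata3 and Elavl4 were lower, and Nefm averaged 881 CPM in the libraries labelled Isl1CKO and 3337 CPM in controls. Neurod1 and Rbfox3 were higher, and Neurod1 averaged 2715 and 1471 CPM. Tubb3, at 3940 and 3210 CPM, was not called. Mitochondrial genes took 0.845% to 1.02% of counts in the libraries labelled Isl1CKO and 1.05% to 1.65% in controls, which do not overlap either. The part of these differences in the results below was not tested. With bulk RNA, fewer cells of a type and less RNA per cell cannot be told apart. P-values measure the spread between these libraries, which are numbered as technical replicates in a label and described as biological replicates in the design text.

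The 5 delta-2 protocadherins were all higher, so the sequence just before each of their start sites is shown for comparison. The sequences are the bases ahead of the RefSeq start on GRCm38.p6, up to 250 of them, without bases that GENCODE M21 annotates as exon. They are written 5′ to 3′ on the strand of the gene, and capitals mark ATTGG, which is CCAAT, the box bound by NF-Y, on the other strand.
Pcdh8, chr14:79771313-79771562, minus strand: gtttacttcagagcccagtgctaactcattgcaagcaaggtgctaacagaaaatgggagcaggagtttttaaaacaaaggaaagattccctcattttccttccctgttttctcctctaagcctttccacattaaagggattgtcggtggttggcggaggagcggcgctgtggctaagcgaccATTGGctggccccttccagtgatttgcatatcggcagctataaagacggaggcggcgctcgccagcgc
Pcdh10, chr3:45378261-45378397, plus strand: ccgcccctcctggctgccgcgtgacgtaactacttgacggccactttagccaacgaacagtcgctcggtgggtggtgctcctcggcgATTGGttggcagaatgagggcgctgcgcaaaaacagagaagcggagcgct
Pcdh17, chr14:84443313-84443562, plus strand: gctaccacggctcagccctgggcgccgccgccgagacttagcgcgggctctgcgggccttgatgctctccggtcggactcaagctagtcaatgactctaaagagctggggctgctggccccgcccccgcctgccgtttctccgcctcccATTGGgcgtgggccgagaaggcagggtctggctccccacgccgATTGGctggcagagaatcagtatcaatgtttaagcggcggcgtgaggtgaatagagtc
Pcdh18, chr3:49757326-49757566, minus strand: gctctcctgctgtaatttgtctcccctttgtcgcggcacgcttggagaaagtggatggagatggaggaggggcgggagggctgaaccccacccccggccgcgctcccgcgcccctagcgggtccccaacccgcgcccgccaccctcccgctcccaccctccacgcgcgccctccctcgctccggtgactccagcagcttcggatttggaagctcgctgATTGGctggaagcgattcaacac
Pcdh19, chrX:133688994-133689243, minus strand: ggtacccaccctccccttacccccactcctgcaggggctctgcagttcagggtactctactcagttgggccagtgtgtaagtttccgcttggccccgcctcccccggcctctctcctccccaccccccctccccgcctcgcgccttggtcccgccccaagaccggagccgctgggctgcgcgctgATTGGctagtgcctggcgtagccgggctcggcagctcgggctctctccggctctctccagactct
Each of the 5 holds ATTGG in this orientation close to its start: the first base lies 68 bases before it in Pcdh8, 50 in Pcdh10, 58 and 101 in Pcdh17, 32 in Pcdh18 and 65 in Pcdh19. CCAAT on either strand was found in 33.8% of the 32851 RefSeq windows, each of 250 bases with any exon bases left in, and GATTGG, an extension of it, in 14.6%. All but Pcdh8 hold GATTGG. Over all members, 13 of 27 windows hold CCAAT, those of Pcdh9 and Cdh7 among them but also those of Cdh8, Cdh9, Cdh18, Cdh20 and Pcdh15, which were not called or not tested. GATTGG was found in 9 of the 27, including those of Cdh9 and Cdh18. The homeodomain core TAAT, on either strand, was found in 54.9% of all windows and among the 5 only in Pcdh8 and Pcdh18. CTAATG, a core described for ISL1, was found in 6.36% of windows and in 0 of the 5, and TAATTA, bound by many homeodomain proteins, in 4.84% and 0. Both overlap TAAT. The TATA box, TATAAA on the sense strand, was found in 7.59% of windows and among the 5 in Pcdh8 alone. CCAAT was looked for after the sequences had been seen, and a match is a description of these letters only.

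Among the delta-2 genes, Pcdh8 had the largest fitted difference. It encodes arcadlin, a protocadherin taken into the cell together with N-cadherin when neurons are active. Pcdh8 lay at 3.56, 10.6 and 27.6 CPM (lowest, median and highest) in the libraries labelled Isl1CKO and at 0, 0 and 0.0793 CPM in controls. Every library labelled Isl1CKO held at least 45 counts and no control held more than 1. The floor of 3 counts per library was 0.234 CPM on average in controls. Against it the mean Pcdh8 level of the libraries labelled Isl1CKO, 13.6 CPM, was at least 58.1-fold higher. The fitted log2 fold change was 8.58 ± 0.78 (SE; edgeR adjusted p = 3.97e-06), for a gene that passed the filter only through these libraries. Pcdh8 shares 9.61% of its exon length with Gm9748 on the opposite strand, and whether counting used the strand is not given in the sources used here.

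Pcdh18 and Pcdh19 were near the floor of 3 counts in some controls and well detected in all libraries labelled Isl1CKO. Pcdh18, which binds the adaptor protein DAB1, lay at 20.2, 35.7 and 41.4 CPM in the libraries labelled Isl1CKO and at 0.0834, 0.835 and 3.26 CPM in controls. The groups did not overlap, and the difference was 4.85 ± 0.51 on the log2 scale (SE; edgeR adjusted p = 1.71e-05). Without control 4, the library with the most Pcdh18 of its group, it was 5.50. Pcdh19, an X-linked gene known for an epilepsy that affects heterozygous females, lay at 17.1, 22.3 and 57.4 CPM against 0.0732, 1.11 and 2.99 CPM. These groups did not overlap either, and the difference was 4.60 ± 0.60 on the log2 scale (SE; edgeR adjusted p = 1.45e-04). The highest Pcdh19 value, 57.4 CPM, belonged to Isl1CKO 3, and the other 5 of that group reached 25.8 CPM at most.

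Pcdh10 and Pcdh17, which recruit the WAVE complex at axon contacts, were already well detected in controls. Pcdh10 lay at 196, 268 and 310 CPM in the libraries labelled Isl1CKO and at 19.7, 32.5 and 74.8 CPM in controls, where control 3 stood highest. The groups were far apart, and the difference was 2.80 ± 0.28 on the log2 scale (SE; edgeR adjusted p = 1.24e-05). Its opposite-strand neighbour 1700027H10Rik, which shares 0.97% of the exon length of Pcdh10, was also higher, with a log2 value of 3.63 (edgeR adjusted p = 5.85e-04). Pcdh17 lay at 277, 389 and 479 CPM against 129, 231 and 247 CPM. The groups did not overlap, and the difference was 0.81 ± 0.16 on the log2 scale (SE; edgeR adjusted p = 0.00379).

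**Figure D2:**
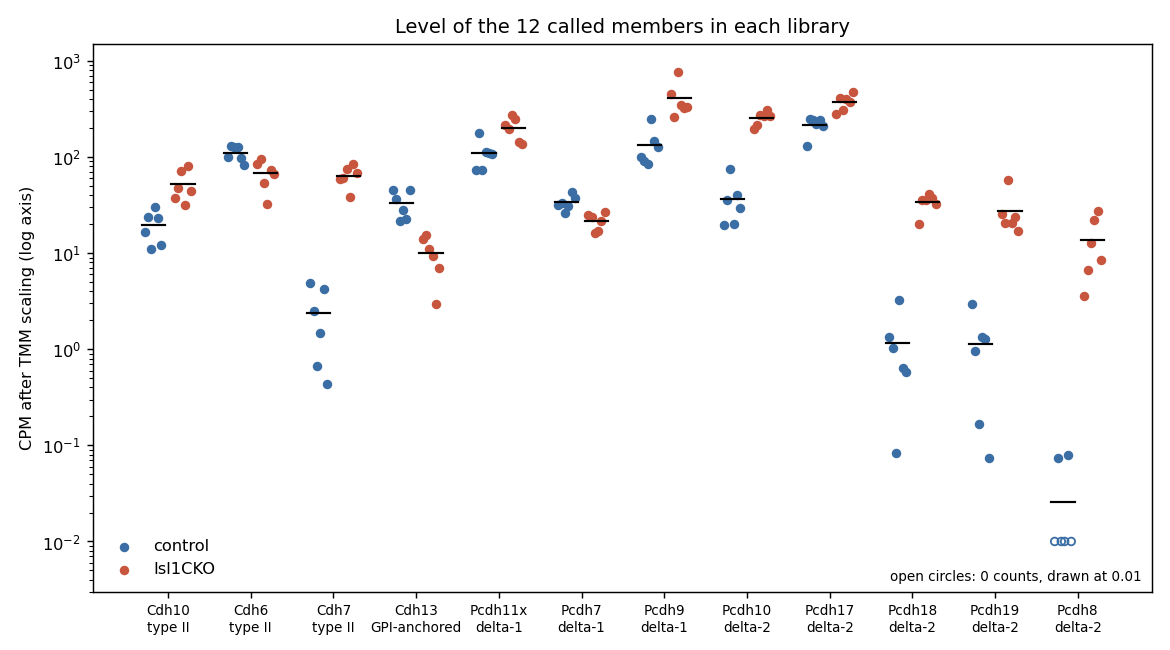
CPM after TMM scaling, on a log axis, of the 12 called genes in each library; every point is 1 library, black lines are group means, and open circles are libraries with 0 counts. For Pcdh8, Pcdh18, Pcdh19 and Cdh7 all control libraries lie below 5 CPM and all libraries labelled Isl1CKO above 3 CPM.

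The delta-1 protocadherins did not all move the same way: 2 of 4 were higher, 1 was lower and 1 was not called. Pcdh9, one of the most abundant of the 35 genes per exon length, lay at 263, 341 and 765 CPM in the libraries labelled Isl1CKO and at 85.5, 114 and 249 CPM in controls. The groups did not overlap, although control 4 at 249 CPM came near the lowest library labelled Isl1CKO. The difference was 1.63 ± 0.29 on the log2 scale (SE; edgeR adjusted p = 0.00208). Without Isl1CKO 3, the library at 765 CPM, it was 1.37. Pcdh11x, an X-linked protocadherin, lay at 137, 205 and 274 CPM against 72.4, 110 and 178 CPM. The groups overlapped through control 2 at 178 CPM, and the difference was 0.89 ± 0.22 on the log2 scale (SE; edgeR adjusted p = 0.0185). The call ended when the 3 libraries of mixed-sex transcripts were left out, at 0.86 (edgeR adjusted p = 0.106), and when macrophage and Schwann cell marker levels were covariates, at 1.02 ± 0.30 (SE; edgeR adjusted p = 0.0628).

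Pcdh7, which binds protein phosphatase 1 inside the cell, was the delta-1 gene that was lower. It lay at 16.3, 22.6 and 26.7 CPM in the libraries labelled Isl1CKO and at 26.4, 32.3 and 43.7 CPM in controls. The groups overlapped slightly at their edges, and the difference was -0.64 ± 0.17 on the log2 scale (SE; edgeR adjusted p = 0.0252). The call was lost without the 3 libraries of mixed-sex transcripts, with the 2 marker covariates, and without Isl1CKO 4, control 5 or control 6 (adjusted p from edgeR 0.186, 0.0797, 0.0554, 0.0567 and 0.0543). The log2 difference of Pcdh7 lay between -0.71 and -0.56 over all 21 other settings. Of its exon length 21.1% is shared with 4932441J04Rik on the opposite strand, a gene at 0.340 CPM against 1.12 CPM in controls. Pcdh1, the remaining delta-1 gene, averaged 3.06 ± 1.88 and 2.13 ± 1.95 CPM (SD, n = 6), a difference inside the spread between libraries (edgeR adjusted p = 0.699).

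Type II cadherins included genes called in both directions, 2 higher and 1 lower among 8 tested. Cdh7 lay at 38.0, 64.8 and 84.2 CPM in the libraries labelled Isl1CKO and at 0.439, 2.0 and 4.90 CPM in controls. No library of one group came near the other, and the difference was 4.75 ± 0.47 on the log2 scale (SE; edgeR adjusted p = 9.25e-06). Cdh10, a brain cadherin, lay at 31.5, 46.3 and 79.9 CPM against 11.0, 19.8 and 30.2 CPM. The groups were separate by a narrow margin, and the difference was 1.42 ± 0.28 on the log2 scale (SE; edgeR adjusted p = 0.00421). Without the libraries of mixed-sex transcripts, 2 of which held the highest Cdh10 levels, it was 0.95 and no longer called (edgeR adjusted p = 0.119).

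Cdh6, which marks subsets of neurons in several sensory systems, was lower. It lay at 32.6, 70.1 and 94.9 CPM in the libraries labelled Isl1CKO and at 83.4, 114 and 132 CPM in controls. The groups overlapped, since Isl1CKO 1 and 2 exceeded control 6, and the difference was -0.72 ± 0.21 on the log2 scale (SE; edgeR adjusted p = 0.0429). This call was the least stable of the 12: it held in 9 of 21 other settings, with log2 fold changes from -0.86 to -0.57. It was lost without control 1, 2, 3, 4 or 5 and without Isl1CKO 3, 5 or 6, with edgeR adjusted p between 0.0515 and 0.0814. It was also lost without the 3 libraries of mixed-sex transcripts (edgeR adjusted p = 0.104), with the marker covariates (edgeR adjusted p = 0.231) and with no filter (edgeR adjusted p = 0.0534).

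The other type II genes tested, Cdh11, Cdh12, Cdh18, Cdh19 and Cdh22, were not called. Their mean levels lay between 2.38 and 11.1 CPM in the libraries labelled Isl1CKO and between 1.49 and 9.45 CPM in controls, and single libraries scattered widely. Cdh22, for instance, ran from 0.0793 to 7.55 CPM among controls. Cdh19, a cadherin of the Schwann cell lineage, was at 0 in controls 1, 2 and 3 and reached 9.62 CPM in Isl1CKO 2. Isl1CKO 2 also had the highest summed level of 9 Schwann cell markers, 255 CPM. Elsewhere Isl1CKO 5 had Cdh19 at 3.50 CPM with a marker sum of 234 CPM, control 5 had 0.793 CPM with 185 CPM, and control 4 had 6.07 CPM with 107 CPM. The log2 difference of Cdh19 was 1.10 ± 1.21 (SE; edgeR adjusted p = 0.647), and -1.89 ± 1.22 with the macrophage and Schwann cell covariates (SE; edgeR adjusted p = 0.453). The part of Schwann cell RNA in the Cdh19 level was not otherwise tested. Over the groups the Schwann cell sums overlapped, at 34.8 to 255 CPM and 32.0 to 185 CPM, and 0 of 5 tested markers were called by edgeR, DESeq2 or limma-voom, with 0 at an unadjusted p under 0.05. Cdh8, Cdh9, Cdh20 and Cdh24 did not pass the filter. Cdh9 had 74 counts in Isl1CKO 2 and 47 in Isl1CKO 3, 0 in the other 4 libraries of that group and at most 6 in any control. Cdh20 had at most 26 counts, Cdh8 at most 34 and Cdh24 at most 14 in any library.

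Cdh13, which encodes T-cadherin, is the member without a cytoplasmic part and is held in the membrane by a lipid anchor. It lay at 2.99, 10.2 and 15.4 CPM in the libraries labelled Isl1CKO and at 21.4, 32.3 and 45.8 CPM in controls. All 6 libraries labelled Isl1CKO lay below all controls, and the difference was -1.74 ± 0.34 on the log2 scale (SE; edgeR adjusted p = 0.00336). The call held in all 21 other settings, with log2 fold changes of -1.90 to -1.55 when single libraries were left out.

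Type I cadherins gave no call. Cdh2 encodes N-cadherin, the main cadherin of neurons, and Cdh4 encodes R-cadherin. Cdh2 lay at 297, 425 and 511 CPM in the libraries labelled Isl1CKO and at 202, 316 and 426 CPM in controls. The groups overlapped, and the difference, 0.36 ± 0.16 on the log2 scale (SE), had an unadjusted p of 0.0408 (edgeR adjusted p = 0.191). Cdh4 averaged 122 ± 47.7 and 98.3 ± 25.4 CPM (SD, n = 6; edgeR adjusted p = 0.464). DESeq2 and limma-voom called 0 of the 2 as well. Cdh1 and Cdh3, which encode the epithelial cadherins E- and P-cadherin, did not pass the filter and had at most 13 and 19 counts in any library.

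Celsr and Fat genes passed the filter in all 7 cases together with Dchs1, and 0 were called by edgeR, DESeq2 or limma-voom. At an unadjusted p under 0.05 there were 0 of the 3 Celsr genes and 2 of the 4 Fat and Dachsous genes. Celsr3, needed for axon tracts in the brain, averaged 34.5 ± 7.81 CPM in the libraries labelled Isl1CKO and 40.8 ± 12.3 CPM in controls, and Celsr2 43.6 ± 8.35 and 37.7 ± 9.27 CPM (SD, n = 6). On the log2 scale these differed by -0.24 ± 0.20 and 0.21 ± 0.17 (SE). Celsr1 averaged 9.62 ± 4.35 and 15.6 ± 8.52 CPM (SD, n = 6), which differ by -0.69 ± 0.36 on the log2 scale (SE; edgeR adjusted p = 0.270). Fat1 and Fat3 had log2 differences of opposite sign, -0.96 ± 0.40 and 1.48 ± 0.62 (SE; edgeR adjusted p = 0.156 and 0.159). Fat3 was called in 1 setting, without Isl1CKO 3 (log2 fold change 1.73, edgeR adjusted p = 0.0463). Its counts were low: 4 control libraries reached the 0.746 CPM of the filter, and Isl1CKO 3 held 4 counts. Fat4 and its ligand gene Dchs1 differed by 0.49 ± 0.37 and -0.27 ± 0.40 on the log2 scale (SE; edgeR adjusted p = 0.467 and 0.740). Of the tip-link genes of hair cells, Pcdh15 averaged 3.55 ± 2.91 and 6.16 ± 1.72 CPM (SD, n = 6; edgeR adjusted p = 0.367), with 0 calls by DESeq2 or limma-voom and an unadjusted p of 0.129. Cdh23, its partner in the tip link, did not pass the filter and had at most 8 counts in any library.

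Levels can be set side by side only per exon length, so mean CPM were divided by the kilobases of annotated exon. In controls Cdh2 ranked first at 40.0 ± 9.57 CPM per kb, followed by Pcdh9 at 19.7 ± 9.02, Pcdh17 at 16.6 ± 3.47, Cdh4 at 13.5 ± 3.51 and Cdh6 at 12.3 ± 2.21 CPM per kb (SD, n = 6). From Pcdh9 to Cdh6, each differed from the next by less than its spread. In the libraries labelled Isl1CKO Pcdh9 ranked first at 61.1 ± 26.9 CPM per kb, within its spread of Cdh2 at 51.2 ± 9.18, and Pcdh17 kept place 3 at 29.0 ± 5.65. Pcdh10 moved from the 11th to the 5th place of 35, Cdh7 from 24th to 8th, Pcdh18 from 26th to 9th and Pcdh8 from 35th to 12th. Cdh13 moved from the 10th to the 20th place. Summed over the subfamily, delta-2 protocadherins lay at 11.7 to 23.4 CPM per kb in controls and at 40.7 to 63.8 CPM per kb in the libraries labelled Isl1CKO. Pcdh17 made up most of the control sum, with 16.6 of a mean of 19.2 CPM per kb. In the libraries labelled Isl1CKO, Pcdh17 and Pcdh10 made up most, with 29.0 and 16.0 of a mean of 56.9 CPM per kb. Delta-1 protocadherins lay at 20.9 to 47.6 and 55.2 to 134 CPM per kb, and most of either sum was Pcdh9, while Pcdh7 was lower and Pcdh1 was not called. The sums of type I genes were 35.5 to 62.7 and 62.1 to 79.7 CPM per kb, and those of type II genes 14.7 to 22.7 and 14.9 to 30.8 CPM per kb, with overlap in both.

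**Figure D3:**
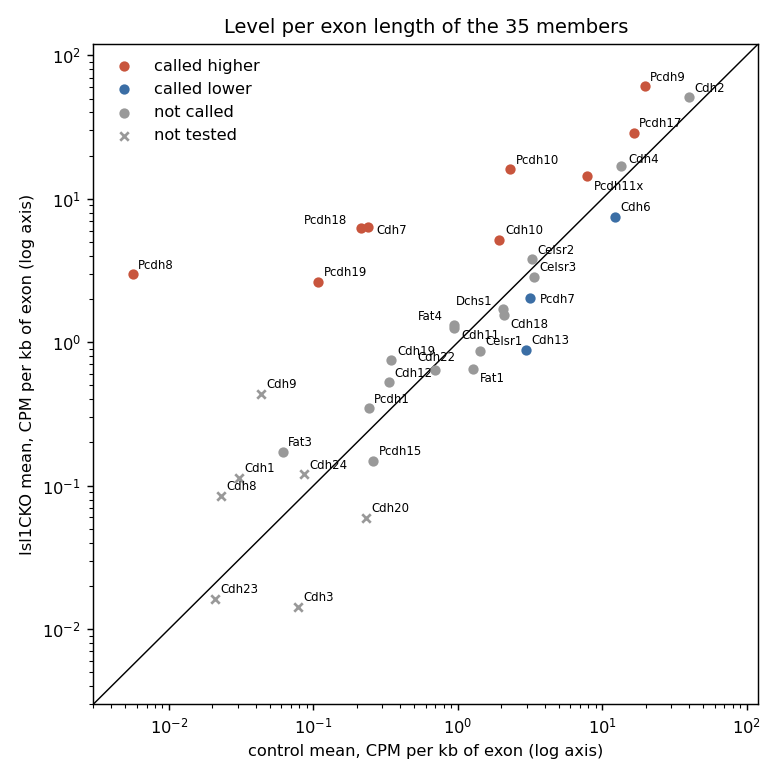
Mean level per kilobase of exon in controls (x axis) and in the libraries labelled Isl1CKO (y axis), both on log axes, for the 35 genes; the line marks equal levels and crosses are genes that did not pass the filter. Pcdh8, Pcdh18, Pcdh19, Cdh7 and Pcdh10 lie farthest above the line among the tested genes, while Cdh2 and Cdh4 lie close to it.

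Genes that work with cadherins were read from lists of partners. Of 14 tested catenin and junction genes, 4 were lower and 0 higher, which is 28.6% called beside the 10.2% of all tested genes. Nectin3, an adhesion gene whose product sits beside cadherins at junctions, averaged 16.0 ± 5.91 CPM in the libraries labelled Isl1CKO and 64.0 ± 11.8 CPM in controls (SD, n = 6; groups not overlapping, edgeR adjusted p = 6.54e-05). Nectin2 averaged 50.9 ± 9.87 and 92.8 ± 20.8 CPM (SD, n = 6; log2 fold change -0.87, edgeR adjusted p = 0.00355). The catenin genes Ctnna2 and Ctnnd2, both typical of neurons, were lower too, with log2 values of -0.45 for Ctnna2 and -0.60 for Ctnnd2 (adjusted p from edgeR 0.00490 and 0.00540). Ctnnb1, Ctnna1 and Ctnnd1, which encode beta-, alpha-E- and p120-catenin, were not called.

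The 5 further partner lists with a call had 11.1% to 16.7% of their tested genes called, near the 10.2% of all tested genes, so their calls are given for single genes. Among 12 tested planar polarity partners of the Celsr genes, 2 were higher and 0 lower. Fzd3, the frizzled receptor that acts with Celsr3 in axon tracts, averaged 384 ± 45.7 and 250 ± 45.3 CPM (SD, n = 6; log2 fold change 0.62, edgeR adjusted p = 0.00297). Prickle1 averaged 7.73 ± 4.95 and 0.957 ± 0.913 CPM (SD, n = 6; log2 fold change 3.00, edgeR adjusted p = 0.0179). Of 9 tested partners of Fat and Dachsous, Tead1, a transcription factor of the Hippo pathway, was the 1 called, at 48.5 ± 12.6 against 11.0 ± 2.58 CPM (SD, n = 6; log2 fold change 2.14, edgeR adjusted p = 9.25e-06). Of 12 partners of protocadherins and WAVE subunits, Dab1, whose product binds that of Pcdh18, was higher, at 39.1 ± 14.8 against 5.79 ± 4.17 CPM (SD, n = 6; edgeR adjusted p = 5.69e-04). Brk1, a small WAVE subunit, was lower, at -0.33 on the log2 scale (edgeR adjusted p = 0.0408). Adam17, a protease of the cell surface, was the 1 of 7 processing genes called, with means of 32.3 and 20.1 CPM (edgeR adjusted p = 0.0114). Of 4 tested tip-link partners 0 were called by edgeR, DESeq2 or limma-voom, and 0 had an unadjusted p under 0.05. Among 7 tested cadherin superfamily genes outside the 36, Pcdh20 alone was called. It encodes a further non-clustered protocadherin and averaged 23.7 ± 16.4 against 0.768 ± 1.52 CPM (SD, n = 6; log2 fold change 4.91, edgeR adjusted p = 0.00238). Among controls Pcdh20 had a median of 0.121 CPM and a highest value of 3.85 CPM. The lowest control was at 0 CPM for both Pcdh20 and Prickle1, so controls alone would not have carried either through the filter.

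Some of these genes are also expressed in other cells of the inner ear, so marker sums are given beside them. Pcdh18 and Cdh11 are known from mesenchyme. The summed level of 11 mesenchyme markers was 72.1 to 123 CPM in the libraries labelled Isl1CKO and 38.6 to 85.3 CPM in controls, which overlap, and of 4 tested markers Tbx18 and Col3a1 were higher. Tbx18 averaged 39.5 CPM in the libraries labelled Isl1CKO and 1.09 CPM in controls, and Col3a1 14.1 and 2.66 CPM. Tbx18 was at 0 in 2 controls, so controls alone would not have carried it through the filter. Col1a2 averaged 4.67 and 1.30 CPM (edgeR adjusted p = 0.0602) and Pou3f4 27.4 and 52.9 CPM (edgeR adjusted p = 0.143). Of the 7 markers that did not pass the filter, Prrx1 averaged 4.72 and 0.337 CPM, Twist1 0.0129 and 1.13 CPM, and Col1a1, Pdgfra, Pdgfrb, Dcn and Lum between 0.196 and 0.701 CPM in either group. Macrophage sums had medians of 119 and 6.57 CPM, with ranges of 0.802 to 756 CPM and 1.66 to 364 CPM. All 8 tested macrophage markers had positive log2 fold changes, with a median of 1.64, and 0 were called by edgeR, DESeq2 or limma-voom, with 0 at an unadjusted p under 0.05. Endothelial sums ran from 1.60 to 35.5 CPM and from 2.30 to 5.93 CPM. The 35.5 CPM belonged to Isl1CKO 3, and the next highest was 6.75 CPM in Isl1CKO 2. Most of the 35.5 CPM was a single marker, Kdr, at 27.7 CPM. Tie1, Emcn and Cldn5 had at most 3 counts in any library. Isl1CKO 3 was also the library with the highest Pcdh9 and Pcdh19. Hair cell sums, mostly Myo6, were 293 to 580 CPM and 253 to 538 CPM, and of 4 tested markers Ccer2 was lower, at 3.83 against 36.7 CPM (edgeR adjusted p = 1.54e-04). Cochlear epithelium sums were 13.1 to 31.8 and 16.5 to 43.4 CPM, and of 5 tested markers Lgr5 was lower, at 0.845 against 4.95 CPM (edgeR adjusted p = 0.0446). In a fit with the mean log2 level of the macrophage and of the Schwann cell markers as covariates, Pcdh8, Pcdh10, Pcdh17, Pcdh18, Pcdh19, Pcdh9, Cdh7, Cdh10 and Cdh13 were still called. The part of mesenchyme, endothelial, hair cell or epithelial RNA was not tested.

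**Figure D4:**
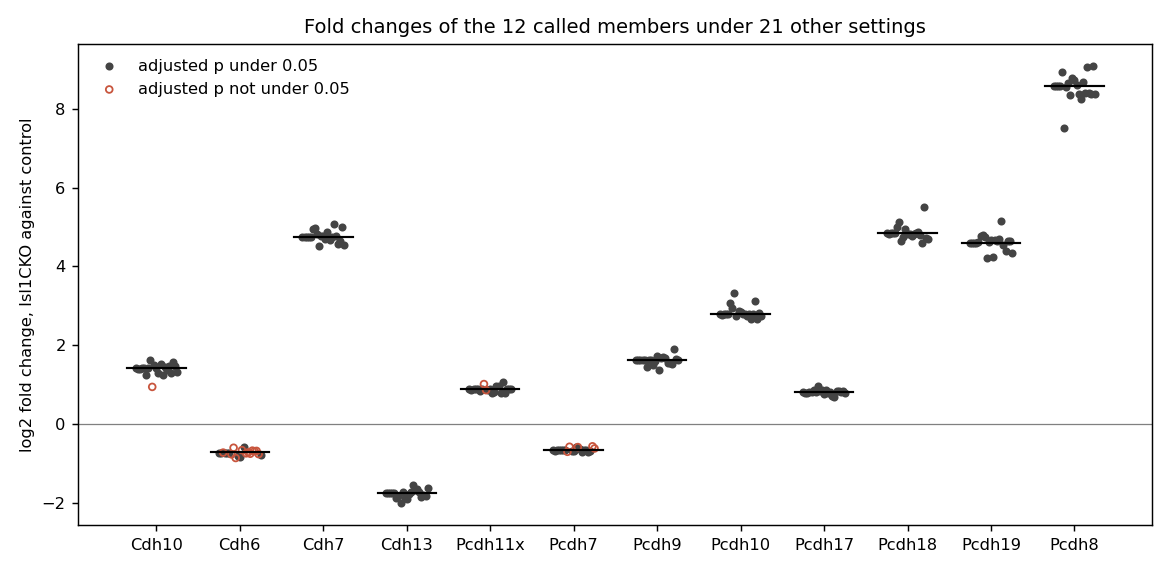
Log2 fold change of the 12 called genes under 21 other settings, each a point, with the reported value as a black line; open circles are settings in which the adjusted p was not under 0.05. Points of Pcdh8 run from 7.52 to 9.08 and the highest of Cdh13 is -1.55, while the open circles belong to Cdh10, Cdh6, Pcdh11x and Pcdh7.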

How the data were processed

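The authors deposited whole-number counts per Ensembl gene, not normalized, with 1 column per library. Per the submitters' processing notes, cutadapt 1.18, Bowtie 1.2.2, STAR 2.7.0c and featureCounts were used with build GRCm38.p6; the annotation release and the use of strand are not given in the sources used here. Each column name was tied to the sample title of the same genotype and replicate. Symbols, positions and exon lengths came from GENCODE M21, which is on GRCm38. Under R 4.3.3, edgeR 4.0.16 kept genes by filterByExpr (minimum count 10), scaled libraries by TMM and applied the robust quasi-likelihood test with no covariate over all tested genes, with Benjamini-Hochberg adjustment and a threshold of 0.05. The standard error is the absolute log2 fold change over the square root of F. Levels are CPM after TMM scaling. The floor, 3 counts, was 0.219 to 0.250 CPM per library and covers counting error only. The scripts were tested on simulated data. There edgeR recovered 36 of 95 tested genes altered by 1 on the log2 scale and 76 of 92 altered by 2. A gene not called here may therefore still differ. DESeq2 1.42.0 and limma-voom (limma 3.58.1) were the other tests. RefSeq promoter windows on GRCm38.p6 matched 24 of the 36 genes. The genes and lists were chosen with earlier results of these data known. Named in full were Isl1, every called gene, well-expressed genes not called, and up to 3 called genes with the smallest p per partner list; other named genes were chosen after their values were seen. Libraries of a group differed from each other by far more than sampling noise, so none was counted as deposited more than once. Alternatives were other scalings, filters, tests, the replicate block, marker covariates and left-out libraries.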

Additional observations from a re-analysis of the deposited data

Results flagged for a closer look

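Over the 28 tested genes, 56 group values were checked. In 11 of them a single library was separated from its 5 fellows by a gap above Dixon's critical value. About 2.8 such cases would arise by chance if the values of a group were normally distributed. CPM, some of them near 0, need not be, so this number is only a guide. Among libraries labelled Isl1CKO, replicate 3 stood high for Pcdh9 at 765 CPM (the others 263 to 451) and for Pcdh19 at 57.4 CPM (17.1 to 25.8). Replicate 2 stood high for Cdh19 at 9.62 CPM (0.0762 to 3.50), and replicate 5 for Celsr1 at 18.1 CPM (6.40 to 9.58). Among controls, replicate 3 stood high for Pcdh10 at 74.8 CPM (19.7 to 39.8) and for Celsr3 at 63.9 CPM (27.8 to 40.8). Control 2 stood high for Pcdh11x at 178 CPM (72.4 to 112) and for Fat3 at 2.89 CPM (0.659 to 1.35). Control 1 stood high for Cdh18 at 22.0 CPM (3.50 to 10.2) and low for Pcdh17 at 129 CPM (208 to 247). Control 4 stood high for Cdh19 at 6.07 CPM (0 to 2.05).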

How the results depend on the processing

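Of the 36 genes, 12 were called, and 8 to 12 were called under the alternatives that did not leave out single libraries; leaving out each library in turn gave 10 to 12. Genes called higher, 9 as reported, numbered 7 to 9 and 9 to 10. Genes called lower, 3 as reported, numbered 1 with the macrophage and Schwann cell covariates, 1 when the mixed-sex libraries were left out, and 1 to 3 with single libraries left out, the 1 being without control 5. No gene that was called changed direction in any setting run. Of the gene values under other settings, 561 stayed on their side of the threshold, 20 lost a call and 1 gained one. When the mixed-sex libraries were left out, 767 of 16222 genes were called in all, against 1511 of 14813 as reported, and with the 2 marker covariates 901; in both cases the cause was not tested. The fitted log2 fold change of Pcdh8 was 7.52 with limma-voom and 8.58 as reported, and with controls near 0 counts its size depends on the tool. With the replicate block 11 genes were called and 1450 in all, and Cdh6 was the call lost (edgeR adjusted p = 0.0647). Samples of the same number deviated together with Pearson's r from -0.0564 to 0.155 across genes, and 1 of 6 pairs exceeded 0.1. Isl1CKO 1 and 5 correlated best with the control of their own number, the others with a control of another number. Whether samples of the same number share a batch was not tested. Depth limits Cdh1, Cdh3, Cdh8, Cdh9, Cdh20, Cdh23 and Cdh24, whose levels lay near the floor in most libraries.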
